A study of Homo sapiens with 2 samples.

Results

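The factors described here are encoded by 7 related genes, HAND1, HAND2, TWIST1, TWIST2, MESP1, MESP2 and TCF21. A peak belonged to a gene when it overlapped the gene's span on hg19, given to the nearest 1 kb, widened by 20 kb on each side. Between MESP1 and MESP2, whose widened spans meet, a peak went to the nearer gene. The 7 loci together spanned 365 kb and held 25 of the 46208 peaks in the list. The peaks came from chromatin of cardiac progenitors taken on day 7 of differentiation from H1, an established human embryonic stem cell line. The TET1-V5 ChIP group comprised 1 library, precipitated through a V5 tag on the cell's own TET1 gene, and the input group comprised 1 library of the same cells. Both groups were H1 cells given 6 µM of the WNT activator CHIR99021 until day 2 and 5 µM of the WNT inhibitor IWP2 from day 3 to day 5. The genotype entry of both libraries reads wild type, while the design text places the ChIP in the tagged line. Neither group has a replicate, and V5 ChIP of untagged cells was not analysed here, so no test was possible and antibody signal from other sources cannot be told apart from TET1. Peak lists hold no expression, so the cell identity rests on the labels.

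TET1 is a dioxygenase that oxidises 5-methylcytosine, the step that opens removal of DNA methylation, and its CXXC domain binds CpG-rich DNA. The proteins encoded by the 7 genes are basic helix-loop-helix (bHLH) factors, which bind the E-box (CANNTG) mostly as dimers with the E proteins TCF3, TCF4 and TCF12. HAND1 and HAND2 act in the formation of the heart chambers, MESP1 marks the earliest cardiac mesoderm and is switched on only briefly, and MESP2 is best known for the segmentation of somites. TWIST1 and TWIST2 keep mesenchyme and dermal precursors undifferentiated, and TCF21 directs epicardial cells towards cardiac fibroblasts.

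The promoters of HAND1, HAND2, TWIST2 and TCF21 are shown because the peaks at their starts include the highest, the widest and the lowest scoring of the 7. They are RefSeq sequences of GRCh38.p14, the 250 bases before the gene's start, written 5′ to 3′ on the gene's strand with every CpG in capitals. They were matched by symbol, which 5 of the 7 genes were, and TWIST1 and MESP1 had no entry. Their coordinates are on another build than the peaks, so the windows were not placed under peaks by position.
HAND1, GRCh38.p14 chr5:154478228-154478477, minus strand: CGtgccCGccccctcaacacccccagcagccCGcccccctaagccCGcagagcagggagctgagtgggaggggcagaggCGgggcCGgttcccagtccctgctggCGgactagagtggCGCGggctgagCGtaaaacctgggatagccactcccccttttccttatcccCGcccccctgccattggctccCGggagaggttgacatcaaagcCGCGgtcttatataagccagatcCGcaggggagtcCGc
HAND2, GRCh38.p14 chr4:173530230-173530479, minus strand: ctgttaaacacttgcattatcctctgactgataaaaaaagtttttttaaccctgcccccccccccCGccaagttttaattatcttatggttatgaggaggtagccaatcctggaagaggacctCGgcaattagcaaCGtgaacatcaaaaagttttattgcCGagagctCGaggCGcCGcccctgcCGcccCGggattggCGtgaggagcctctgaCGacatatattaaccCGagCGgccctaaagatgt
TWIST2, GRCh38.p14 chr2:238847835-238848084, plus strand: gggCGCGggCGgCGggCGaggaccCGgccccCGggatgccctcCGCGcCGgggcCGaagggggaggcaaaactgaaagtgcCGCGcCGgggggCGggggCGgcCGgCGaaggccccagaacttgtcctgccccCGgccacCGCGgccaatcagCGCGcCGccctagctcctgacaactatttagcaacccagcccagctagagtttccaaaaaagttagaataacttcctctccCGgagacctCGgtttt
TCF21, GRCh38.p14 chr6:133888863-133889112, plus strand: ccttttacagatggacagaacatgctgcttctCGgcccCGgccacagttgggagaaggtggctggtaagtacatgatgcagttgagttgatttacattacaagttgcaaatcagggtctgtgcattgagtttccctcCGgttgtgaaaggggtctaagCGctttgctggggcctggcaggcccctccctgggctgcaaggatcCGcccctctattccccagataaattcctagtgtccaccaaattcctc

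All 7 genes carried a peak at their start. Here a start peak is one that overlaps the first 1 kb of the gene's span in the direction of transcription, and each gene had exactly 1. The score was written by the authors' peak caller. In the whole list it ran from 50 to 3233.06 with a median of 172, and the 2165 peaks at 3100 or more, most of them tied at 3100, are called the ceiling. The start peak scored 2298.75 at HAND1, 1619.85 at TWIST1, 1099.83 at HAND2, 712.63 at MESP1, 552.27 at MESP2, 358.25 at TWIST2 and 243.33 at TCF21. All 7 values lay above the median of the list, and the range from TCF21 to HAND1 was 9.45-fold. With 1 library, no error stands behind this order, so neighbours in it are not shown to differ. For background, 8.07% of all 4 kb windows of the genome touched a peak, but windows are not gene starts, and the share of all gene starts with a peak was not computed here.

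**Figure D1:**
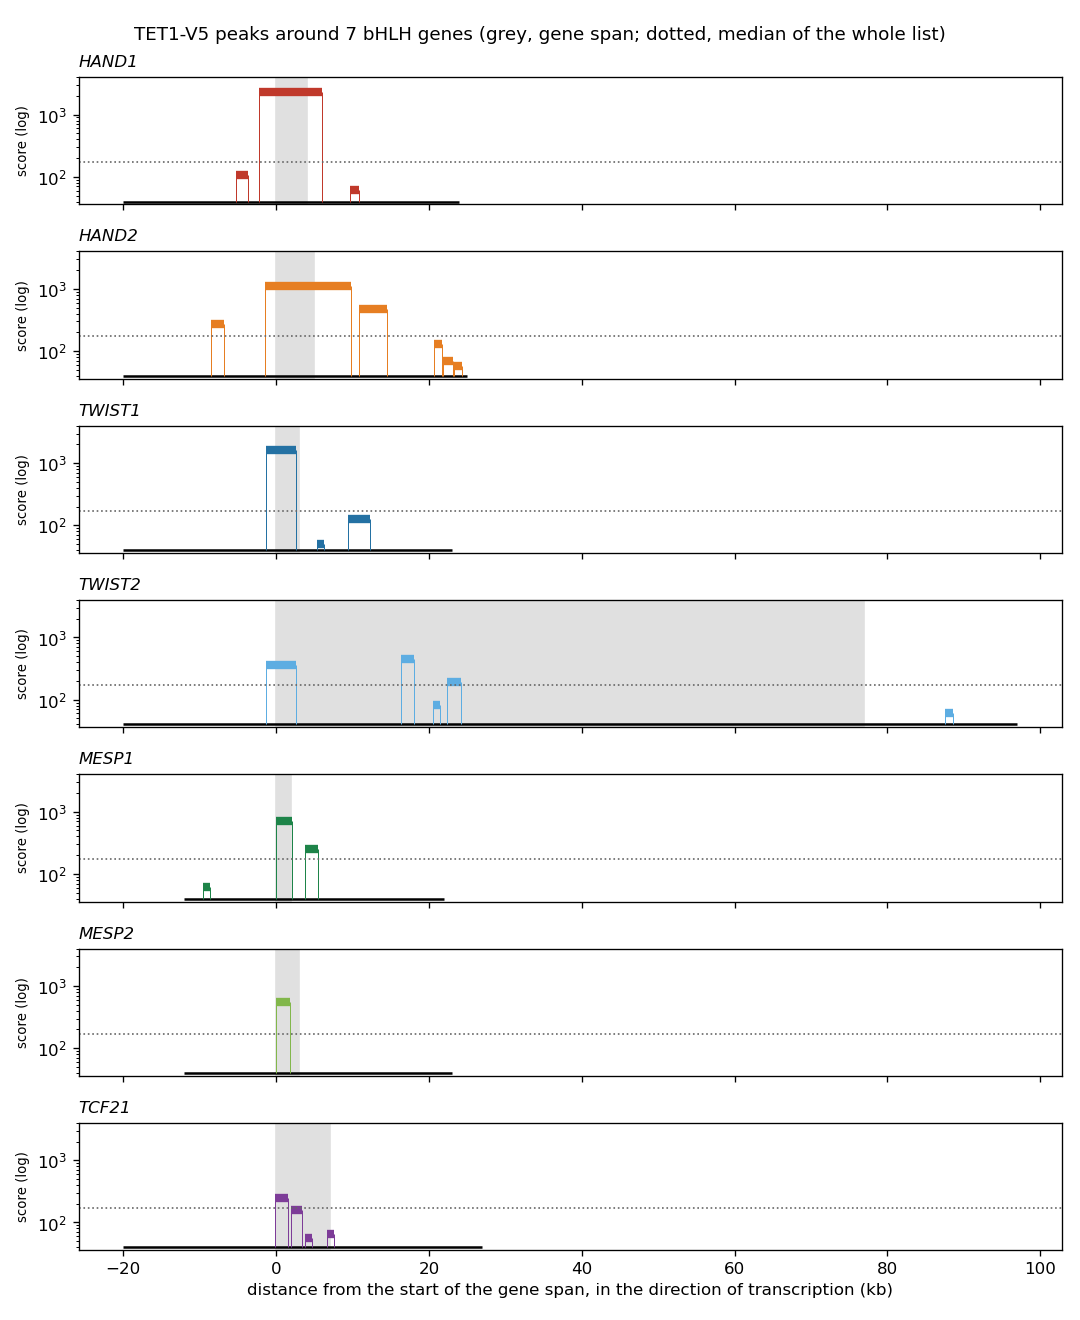
Peaks at the 7 loci, drawn as thick lines from edge to edge at the height of their score (log axis) against distance from the start of the gene span in kb. The grey block is the gene span, the black line at the bottom the locus, and the dotted line the median score of the whole list, 172. Start peaks at HAND1, HAND2 and MESP1 extend across the whole gene span, the TWIST2 span is empty beyond its first part, and TCF21 carries a broken row of 4 short peaks.

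HAND1 lay under a single large peak. The peak ran on chromosome 5 from 153851964 to 153860267, 8304 bp, and covered the whole 4 kb span (153854 to 153858 kb) with 2.27 kb beyond its start and 2.04 kb beyond its end. Its score of 2298.75 was exceeded by 7.58% of the list and its width by 0.619%. Among the 1066 peaks within 10% of that score, 18 were wider, and their median width was 3017 bp. The other peaks of the locus were weak, with a score of 107.9 upstream of the start (153861643 to 153863240) and 60.78 beyond the end (153847170 to 153848274). Thus 75.4% of the peak length at HAND1 belonged to the start peak.

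HAND2 had the widest peak of the 25, and it was wide for its score. It ran on chromosome 4 from 174442212 to 174453440, 11229 bp, and scored 1099.83. Of the 1307 peaks within 10% of that score, 1 was wider, and the median width of those peaks was 2540 bp. It was 1 of 134 peaks in the list of 10 kb or more (0.29%). Of these 134, 89 stood at the ceiling and 13 scored below the HAND2 peak. The peak covered the whole 5 kb span (174447 to 174452 kb) and was lopsided, with 1.44 kb beyond the start and 4.79 kb beyond the end of the gene. In the RefSeq gene order of GRCh38, HAND2 overlaps HAND2-AS1, a long noncoding RNA transcribed away from it, whose mouse counterpart Upperhand acts on Hand2 transcription.

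Within the 20 kb limit HAND2 held 6 peaks, the most of the 7, a rank that depended on the limit. On the gene span itself HAND2 had 1 peak and TWIST2 and TCF21 had 4 each, within 10 kb HAND2 had 3 and those genes again 4 each, and within 50 kb HAND2 had 6 and HAND1 had 9. HAND2 and TWIST2 tied at 4 when peaks up to 1 kb apart were joined, and at 3 in the upper 50% of the list by score. A second broad peak lay 1075 bp beyond the edge of the first, from 174437452 to 174441136 (3685 bp), and its score of 470.58 was the highest of the 18 peaks that were not start peaks. Farther beyond the end of the gene stood a row of 3 narrow peaks, 227 and 143 bp apart, with scores of 57.11, 70.64 and 128.35, that together reached over 3723 bp. The remaining peak was upstream, from 174458808 to 174460564, with a score of 276.16. Peaks covered 44.5% of the 45 kb locus. The 6 peaks formed an island: the next peaks of the list lay 133932 bp from the outermost one on the side of the gene's end and 68827 bp away on the side of its start.

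Counts of 3 peaks or more were found at 6 of the 7 loci, against 8.64% of all 45 kb windows of the genome, of which 33.8% held any peak. The 7 loci ranged from 34 to 117 kb, so the windows match the length of only some of them. Over all loci there were 68.5 peaks per Mb (exact 95% Poisson interval 44.3 to 101.1, counting error only), against 18.95 over the stretches of the genome that carry peaks. The share of DNA under peaks was 16.4% at the loci and 3.69% over those stretches. The loci were chosen around genes, while the genome-wide values include gene deserts, so these figures do not set the 7 genes apart from other genes.

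**Figure D2:**
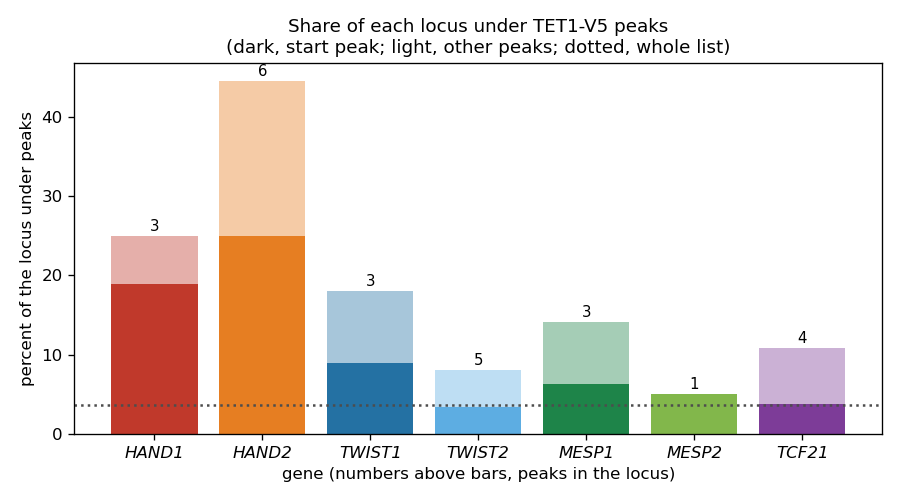
Percent of each locus under peaks for the 7 genes, split into the start peak (dark) and the other peaks (light), with the number of peaks above each bar and the whole list's 3.69% as a dotted line. HAND2 stands at 44.5% and HAND1 at 25.02%, while MESP2 stands at 5.05%.

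TWIST1 had a compact, strong start peak. It ran on chromosome 7 from 19155405 to 19159257, 3853 bp, scored 1619.85 and covered 86.5% of the 3 kb span (19155 to 19158 kb). Of the 1244 peaks within 10% of its score, 228 were wider, so its width was less unusual for its score than those at the HAND genes. Beyond the end of the gene a peak of 2959 bp scored 124.58 and one of 928 bp scored 50.58, close to the lowest score in the list. The 3 peaks stood by themselves: the list holds no peak for 125561 bp on the side of the gene's start and none for 1018237 bp beyond the last peak on the other side. On that other side the next protein-coding gene in the GRCh38 order is HDAC9, a histone deacetylase gene whose body is known to contain enhancers of TWIST1.

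TWIST2 differed from its paralog in having a lower score at the start. It also had further peaks inside the gene, 16.4 kb or more from its start. The 3 kb span of TWIST1 has no room for such peaks, and its other peaks lay beyond its end. The TWIST2 start peak on chromosome 2 from 239754744 to 239758665 was about as wide as that of TWIST1, 3922 bp, but scored 358.25, against 1619.85 at TWIST1. For its score it was wide, since 47 of the 1648 peaks within 10% of that score were wider. The highest score of the locus was not at the start but 16.4 kb into the span, in a peak of 1710 bp from 239772378 to 239774087 with 446.39. It was followed by peaks from 239776568 to 239777465 with a score of 82.64 and from 239778361 to 239780205 with 194.98, and the 3 intragenic peaks ended 24.2 kb from the start of the 77 kb span (239756 to 239833 kb). The next 63297 bp held no peak, which takes in the remainder of the gene, and a weak peak of 60.61 lay 10.5 kb beyond its end. Peaks thus covered 9.24% of the TWIST2 span. TWIST2 was the only gene of the 7 whose start peak was not the highest scoring of its locus, and at all 7 genes the start peak was the widest. At MESP2, which was given 1 peak, both hold by default.

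MESP1 and MESP2, neighbours on chromosome 15 with 24 kb between their spans, carried separate start peaks. At MESP1 the peak from 90292883 to 90295014 (2132 bp) scored 712.63 and covered the whole 2 kb span (90293 to 90295 kb). At MESP2 the peak from 90319049 to 90320815 (1767 bp) scored 552.27 and covered 58.9% of the 3 kb span (90319 to 90322 kb). Neither was wide for its score: 879 of 1434 peaks within 10% of the MESP1 score were wider, and 1124 of 1443 for MESP2. Both exceeded the median of the list in width, 1531 bp, by little compared with the HAND peaks.

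The surroundings of the MESP genes differed. MESP1 had a second peak 1.81 kb beyond its end, from 90289528 to 90291192, with a score of 248.3. In the GRCh38 gene order MESP1 overlaps WDR93, and whether the MESP1 peaks lie on that gene was not examined on hg19. A weak peak (62.68) lay between the genes, 8.6 kb from MESP1, and was assigned to MESP1 as the nearer gene. That weak peak also lay within 20 kb of MESP2, so the counts of both genes depend on the nearer-gene rule. Under it MESP2 kept only its start peak at 20 kb, the fewest of the 7 at that limit. At 50 kb it was given 5, against 3 at TWIST1 and 3 at MESP1. The gap from the MESP2 peak to the next one, on the side of ANPEP, was 28436 bp.

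TCF21 had the lowest start score of the 7 and a broken row of peaks along the gene. On chromosome 6, the span of 7 kb (134210 to 134217 kb) carried 4 peaks. They ran from 134209797 to 134211595 (score 243.33), 134211999 to 134213408 (159.21), 134213735 to 134214708 (56.07) and 134216673 to 134217611 (65.67). The gaps between them were 403, 326 and 1964 bp, so that peaks covered 61.5% of the span and reached from edge to edge over 7815 bp. Joined across gaps of up to 1 kb, the first 3 became a stretch of 4912 bp, longer than any start peak except those at HAND1 and HAND2. No other peak lay within 20 kb, and the nearest was 32960 bp away on the side of the start. By general knowledge, the noncoding RNA gene TARID lies on that side. In other human cells its transcript is known to bring GADD45A, and with it TET1, to the TCF21 promoter. The peak list does not measure that RNA, and any part of it in these peaks was not tested.

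Across the 7 loci the start peaks were mostly stronger and wider than the remaining peaks. The 7 start peaks had a median score of 713 and a median width of 3853 bp. The 18 others had a median score of 95.3 (range 50.58 to 470.58) and a median width of 1163 bp (898 to 3685 bp). The groups overlapped, since the upper end of the other peaks, at HAND2 and TWIST2, lay above the start peaks of TWIST2 and TCF21. Start peaks made up 55.1% of all peak length at the loci, and those of HAND1 and HAND2 by themselves 32.6%. Of the 18 others, 5 scored above the median of the list. These are descriptions of peaks of 1 library, and width and score come from the same peak call. A wide peak also overlaps the first 1 kb of a span more readily, and so counts as a start peak more readily.

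**Figure D3:**
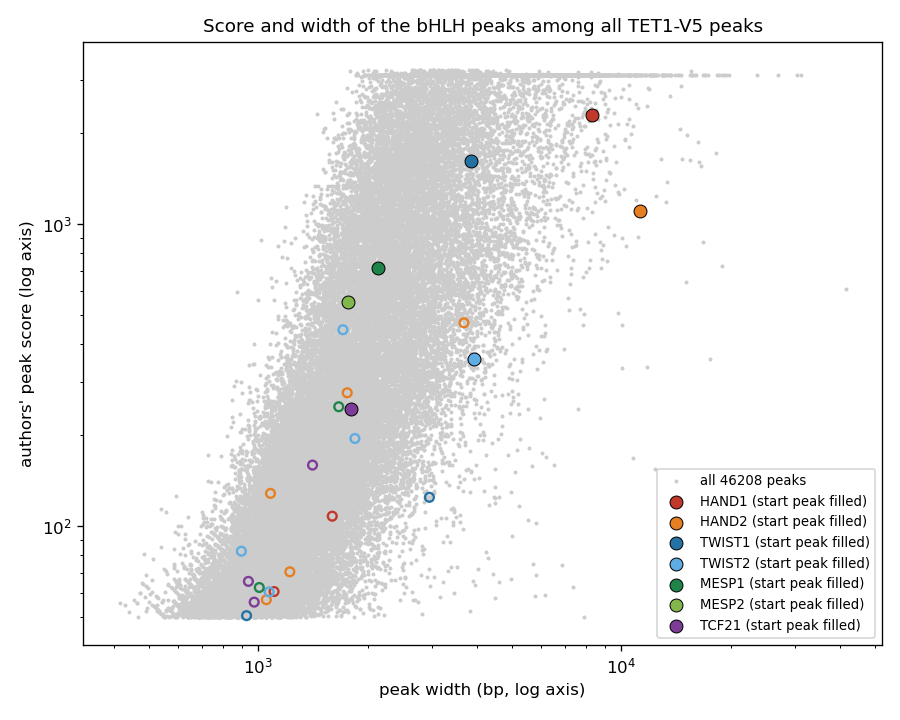
Authors' score against peak width in bp (both log axes) for all 46208 peaks in grey and the 25 peaks of the 7 loci in colour, start peaks filled and others open. HAND1 (8304 bp, 2298.75) and HAND2 (11229 bp, 1099.83) lie at the wide edge of the grey cloud for their scores, while MESP1, MESP2 and TCF21 lie within it.

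Most of the 25 peaks scored below 1000, as did most peaks of the whole list. Scores of 1000 or more were reached by 3 peaks, at HAND1, HAND2 and TWIST1, which is 12% (Wilson 95% interval 4.17% to 30.0%), and by 18.6% of the list. Scores below 100 were found in 9 peaks, 36% (20.2% to 55.5%), against 32.9% of the list. No peak of the 7 loci stood at the ceiling, where 4.69% of the list stood. A count of 0 among 25 allows a share of up to 12%, so a difference from the list was not detectable with this number of peaks. At 8 kb or more there were 2 peaks, 8% (2.22% to 24.97%), against 0.693% of the list. The width limit was chosen after the values had been seen. Counting error is all that these intervals hold, and peaks side by side are not independent of each other. Of the 25 peaks, 8 had another peak within 1 kb, and of all peaks on the chromosomes 21.0% did. Of the 45 kb windows of the genome, 11.7% held a peak of 1000 or more, which 3 of the 7 loci did, and 3.42% held one at the ceiling, which 0 of the 7 did.

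Over the 5 promoters with an entry, the number of CpG pairs and the start score did not have the same order. Only with TWIST2 set aside, after the values had been seen, did they run alike, from HAND1 through HAND2 and MESP2 to TCF21. TWIST1 and MESP1 could not be placed. The TWIST2 promoter printed above held 26 CpG pairs, more than 80.4% of the 35116 RefSeq promoters of the same length, beside a start score of 358.25. The HAND1 promoter held 16 and the HAND2 promoter 13, both near the middle of all promoters (median 11, quartiles 3 and 23), beside 2298.75 and 1099.83. The TCF21 promoter held 5 and the MESP2 promoter 6, beside 243.33 and 552.27. The ratio of observed to expected CpG was 0.89 at TWIST2, 0.85 at HAND2, 0.57 at HAND1, 0.29 at TCF21 and 0.27 at MESP2, against a median of 0.56. This order differed from that of the start scores even without TWIST2. The HAND2 window had a GC content of 49.6%, below the 67.2% of HAND1 and the median of 58%, which raises the ratio for a given number of CpG pairs. The window is short beside the peaks, which were 1767 to 11229 bp wide at these 5 genes, and CpG farther from the start was not counted.

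**Figure D4:**
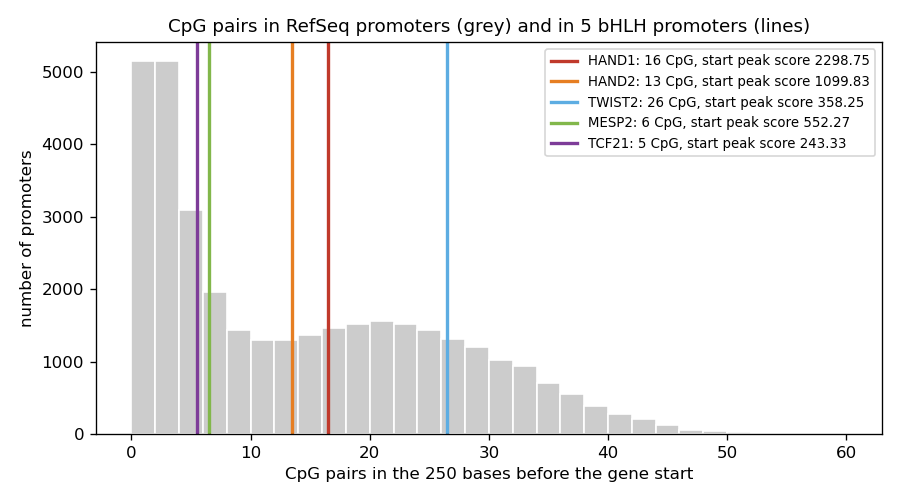
Number of RefSeq promoters (grey bars) by CpG pairs in the 250 bases before the start, with lines at the 5 bHLH promoters. TWIST2, with 26 pairs, has the most but the second lowest start score of the 5, 358.25, and HAND1, with the highest score, has 16.

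The same windows were searched on both strands for the E-box CANNTG, for CCAAT, and for the TATA box as TATATA or as TATAAA. The CCAAT and TATA motifs were chosen after the sequences had been seen. The E-box, the motif bound by these factors themselves, was found 3 times at TCF21, 2 times at MESP2 and 1 time at HAND2. A copy of the form CAGATG stood in both TCF21 and MESP2. The HAND1 and TWIST2 windows held no E-box, and 61.8% of all promoters held at least 1 E-box. The CCAAT sequence was found at HAND1, TWIST2 and, in 2 places, HAND2, and in 32.0% of all promoters. TATATA matched at HAND1, 30 bases before the start, and in 3.73% of all promoters, while TATAAA matched at none of the 5 and in 10.7% of all. Matches are letters in the reference, and no factor binding other than TET1 was measured.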

How the data were processed

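The submitters' processing notes name BWA 0.7.17 as the aligner and hg19 as the build. The authors deposited 1 list of peaks for the ChIP library with its input, with a score for each peak, and per the peak names in the deposited file they were called with MACS. The version, the settings and the unit of the score were not given in the sources used here. Read depth is unknown. The score is used only to rank and describe peaks within this list. Positions count from 1.

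Peaks were matched to the 7 spans by any overlap in pandas 2.3.3 and numpy 2.4.6 under Python 3.11.15, with intervals from scipy 1.17.1, and the overlap and joining steps were tested on simulated peaks with known answers. Strand came from the RefSeq promoter table for 5 genes and from general knowledge for TWIST1 and MESP1. Peaks per Mb were taken over each chromosome from its first to its last peak, without peak-free intervals over 1 Mb, whereas the windows of 45 and 4 kb keep those intervals. The GRCh38.p14 gene table served only for neighbouring gene names. All 7 genes are described, with coordinates for peaks on a gene span and for the highest and widest of each locus, and for others where a gap or position is discussed. The genes, lists and comparisons were chosen with earlier results of these data known. Other bHLH genes and partners were to be counted given hg19 annotation, which was not used here. Alternatives were other widenings, score thresholds, joining of peaks and the midpoint rule.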

Additional observations from a re-analysis of the deposited data

How the results depend on the processing

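Of 39 alternative values for 6 summaries of the loci, 25 stayed within 1.5 times the reported count or within the counting interval of the reported share, and 14 moved. For the covered share that interval is very narrow, although only 25 peaks lie behind the share. Even 16.96% with joined peaks, against 16.4%, therefore counts as moved. All 7 genes kept a peak on their span with a score of at least 100, in the upper 50% by score, with joined peaks and by midpoint. Without widening there were 13 peaks (median 1 per gene) and 26.5% of the DNA was covered. Widening by 10 kb gave 23.0% covered. Widening by 50 kb gave 10.5% covered, a median of 5 peaks per gene and 1 peak at the ceiling, at 1 gene. Scores of at least 100 left 16 peaks and 13.9% covered, and the upper 50% left 12 peaks (median 1) and 11.96% covered. Joining gave 16.96%. These shifts follow from how much DNA or how many peaks each setting takes in. Of the 49 counts per gene, 34 stayed and 15 moved. No paired analysis was possible because ChIP and input are 1 library each. The spans are known to 1 kb, so distances from a start carry that uncertainty, and read depth, which sets which weak peaks are called, is unknown.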

Other observations

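Beyond the 20 kb limit the flanks of the genes were unlike. Between 20 and 50 kb from the spans lay 11 further peaks, each given to the nearer gene. Of them 6 were at HAND1, 4 at MESP2 and 1 at TCF21, and none at HAND2, TWIST1, TWIST2 or MESP1. The 25 peaks already assigned were left out of this count. The start peaks of MESP1 and MESP2, each between 20 and 50 kb from the other gene's span, are thus not in it. The peak just inside the limit was the outermost of HAND2, 18.3 kb from the span with a score of 57.11. Of the 11, the peaks nearest to the limit were both at HAND1, 26.7 kb upstream of its start with 74.29 and 26.8 kb beyond its end with 3100. The peak beyond the end, on chromosome 5 from 153824010 to 153827244 (3235 bp), was the only one at the ceiling within 50 kb of any of the 7 genes, and it scored higher than the HAND1 start peak. The next protein-coding gene on that side in the GRCh38 order is SAP30L, which encodes a subunit of the SIN3A corepressor complex. Which gene the peak lies on was not examined on hg19.

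Upstream of HAND1, a group of 4 weak peaks lay 38.4 to 47.3 kb from the span, with scores of 56.98, 128.75, 123.23 and 102.06. At MESP2 the 4 flanking peaks were all on the side of ANPEP, the gene of aminopeptidase N, at 27.3 to 49.1 kb, and the highest scored 281.51.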
